A study of Sus scrofa with 12 samples.

Results

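The genes of the cytosolic ribosomal proteins were described in longissimus dorsi, the long back muscle, of Laiwu and Yorkshire pigs. They were found by gene symbol: protein-coding genes whose symbols begin with RPL or RPS followed by a number, or with RPLP, leaving out the S6 kinases and the "like" paralogues. The rule took 62 of the 23271 listed genes, 34 of the large subunit, 27 of the small subunit, and RPS19BP1, which binds the ribosomal protein RPS19 and is not itself part of the ribosome. All 62 passed the filter on low values, so the counts below cover every member. Laiwu, a Chinese breed known for fat-rich muscle, and Yorkshire, a lean Western breed, contributed 6 libraries each, from pigs described as being of equal weight. No treatment, age or genotype is given in the labels, and no label says that each library is a different pig; the p-values here reflect spread between libraries, which may be partly technical.

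A ribosome is built of a small subunit, which holds the messenger RNA and reads its codons, and a large subunit, which joins amino acids into a chain and lets the chain out through a tunnel. Each subunit combines ribosomal RNA with many small proteins that are needed in about equal numbers. Their messenger RNAs mostly begin with a tract of pyrimidines, the TOP motif, through which the growth kinase mTOR controls their translation together. In skeletal muscle, ribosome content is a known determinant of the capacity for protein synthesis and growth, and RPL3 is partly replaced by its muscle form RPL3L.

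Each library held 54961358 to 67285809 counts. Members had between 111 and 87076 counts in a library, and the ribosomal proteins at least 325. Muscle fibre markers were high throughout: the summed level of the 5 listed markers (of 6 looked for) ran from 53867 to 72801 FPKM in Laiwu and from 56499 to 78278 FPKM in Yorkshire. FPKM is the count scaled to gene length and library total, and gene length here is the length of the gene model that this scaling implies. Yorkshire 5 stood apart from the other libraries in a way that depends on gene length. Across the 11205 genes tested, its deviation from each gene's mean fell with gene length, at a Spearman's rho of -0.430, where the other 11 libraries lay between -0.116 and 0.177. The main breed results are therefore given with and without Yorkshire 5, while DESeq2 was run only with all 12 libraries.

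No ribosomal protein gene passed the test between the breeds, and nearly all had slightly lower fitted values in Laiwu. The median of these fitted differences was nearer 0 without Yorkshire 5, the library in which almost all members were highest. Members took 1.25 ± 0.0384% (SD, n = 6) of a library's counts in Laiwu and 1.39 ± 0.226% (SD, n = 6) in Yorkshire. The Laiwu libraries ran from 1.18% through a median of 1.26% to 1.29%, and the Yorkshire libraries from 1.21% through 1.29% to 1.83%. The highest value was that of Yorkshire 5, the next that of Yorkshire 3 at 1.42%, and the other 4 Yorkshire libraries lay within or just above the Laiwu range. Without Yorkshire 5 the Yorkshire mean was 1.3003 ± 0.0768% (SD, n = 5), and the difference, Laiwu minus Yorkshire, shrank from -0.139 to -0.0516 percentage points. The large subunit genes took 0.774 ± 0.0232% of counts in Laiwu and 0.847 ± 0.136% in Yorkshire, and the small subunit genes 0.474 ± 0.0236% and 0.541 ± 0.0910% (SD, n = 6 each), so both subunits shared the pattern. Without Yorkshire 5 the Yorkshire means were 0.795 ± 0.0521% for the large and 0.505 ± 0.0314% for the small subunit (SD, n = 5 each).

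**Figure D1:**
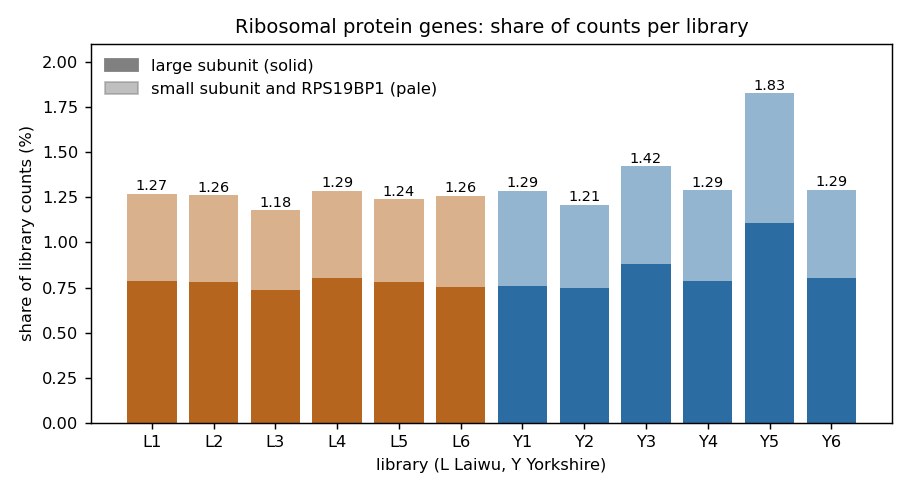
Share of all counts of a library, in percent, taken by the 62 member genes, 1 bar per library, Laiwu in brown and Yorkshire in blue. The solid part is the large subunit and the pale part the small subunit with RPS19BP1. Yorkshire 5 stands at 1.83%, and the other libraries between 1.18% and 1.42%.

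In the quasi-likelihood test of edgeR, adjusted over all 11205 genes by Benjamini and Hochberg's method, 0 of 62 members passed an adjusted p of 0.05. The background was 0% of all tested genes, and the smallest adjusted p of a member was 0.912. DESeq2 also called 0 members, with 1 gene (0.00892%) called in all. At an unadjusted p under 0.05, edgeR had 4 members lower in Laiwu and 0 higher, where the shares over all tested genes were 2.30% and 2.14%. Of the 2786 other tested genes with the shortest models (the shortest 25%), 132 were lower in Laiwu and 26 higher. Without Yorkshire 5 the count of members lower in Laiwu was 1, against 1.16% of all genes and 56 of these 2786 short genes. It was also 1 without Laiwu 2 (2.47% of all genes), Laiwu 3 (1.38%), Laiwu 5 (2.46%) or Yorkshire 6 (2.46%), and 2 without Laiwu 1 (2.09%). It was 3 without Laiwu 6 (1.93%), 5 without Laiwu 4 (2.12%) or Yorkshire 3 (2.6%), and 6 without Yorkshire 2 (3.29%). Without Yorkshire 4 it was 10 (3.20%) and without Yorkshire 1 it was 11 (2.33%), so the count rests on single libraries of both breeds. DESeq2 had 6 members lower in Laiwu at an unadjusted p under 0.05, against 2.74% of all tested genes, and 0 higher, against 2.34%. No member had all 6 Laiwu libraries below all 6 Yorkshire libraries, as 0.0892% of all genes did, and none had them all above (0.0803%). Without Yorkshire 5, 0 members had all Laiwu libraries below all Yorkshire libraries, against 0.125% of all genes.

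The direction was shared by almost all members. A fitted fold change below 0 was found for 60 of 62 members, against 50.3% of all tested genes, and the median log2 fold change was -0.20 against -0.001 for all tested genes. Without Yorkshire 5 it was 49 of 62 against 50.5% of all genes, with a median of -0.07. All fitted fold changes of the 61 ribosomal proteins were under 0.5 in size on the log2 scale, with a median SE of 0.14. The large subunit had 32 of 34 below 0 and a median of -0.17, or -0.04 without Yorkshire 5. The small subunit had 27 of 27 below 0 and a median of -0.21, or -0.09 without Yorkshire 5. In simulated counts of this design, the changed genes were drawn at random from all tested genes. The test recovered 5.5% of genes changed 1.5-fold and 74.5% of those changed 2-fold. For such genes, differences of the size seen here were mostly below what it can call. The median SE was 0.16 over all tested genes, larger than that of the members, whose own recovery was not measured.

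**Figure D2:**
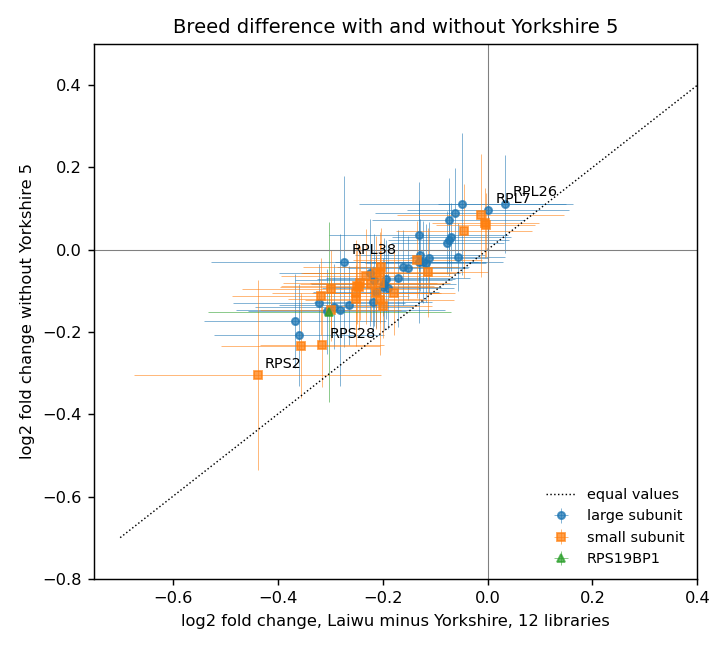
Fitted log2 fold change, Laiwu minus Yorkshire, of each of the 62 members with all 12 libraries (horizontal) and without Yorkshire 5 (vertical), with bars for 1 SE. All 62 points lie above the dotted line of equal values, and 13 of 62 are above 0 on the vertical axis.

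The 4 members of smallest p were all below 0 in Laiwu. RPS28, a small subunit protein, was at 35.5, 41.0 and 46.02 FPKM (lowest, median and highest library) across the Laiwu libraries and 44.0, 49.7 and 61.2 FPKM across the Yorkshire libraries. The breeds overlapped only between 44.0 and 46.02 FPKM, and the log2 fold change was -0.32 ± 0.12 (SE; edgeR adjusted p = 0.912), or -0.23 without Yorkshire 5. RPS28 (ENSSSCG00000013597) lies on chromosome 2, 70953708 to 70954775, of Sscrofa11.1.

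RPS21, another small subunit protein (chromosome 17, 61763574 to 61764832), was at 16.2, 18.5 and 21.3 FPKM across the Laiwu libraries and 18.8, 22.7 and 31.7 FPKM across the Yorkshire libraries, and its log2 fold change was -0.36 ± 0.15 (SE; edgeR adjusted p = 0.912), which became -0.23 when Yorkshire 5 was left out. RPL36, of the large subunit (chromosome 2, 73286903 to 73288489), was at 38.1, 47.5 and 58.2 FPKM across the Laiwu libraries and 50.7, 55.04 and 84.9 FPKM across the Yorkshire libraries. Its log2 fold change was -0.36 ± 0.16 (SE; edgeR adjusted p = 0.912), or -0.21 without Yorkshire 5. In both genes the ranges of the breeds overlapped and Yorkshire 5 was the highest library. RPS20, a protein of the small subunit's head (chromosome 4, 75762209 to 75769955), was at 13.1, 14.4 and 14.7 FPKM across the Laiwu libraries and 13.6, 16.2 and 24.5 FPKM across the Yorkshire libraries. Its log2 fold change of -0.30 ± 0.13 (SE; edgeR adjusted p = 0.912) became -0.15 without Yorkshire 5.

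Only RPL26 and RPL7, both of the large subunit, had fitted values above 0. RPL26, which sits near the mouth of the exit tunnel (chromosome 12, 53548321 to 53553455), was at 132, 159 and 172 FPKM across the Laiwu libraries and 121, 143 and 178 FPKM across the Yorkshire libraries. RPL7 (chromosome 4, 62602431 to 62605892) was at 145, 200.2 and 235 FPKM across the Laiwu libraries and 155, 188 and 237 FPKM across the Yorkshire libraries. The ranges of the breeds overlapped over most of their length in both genes. The log2 fold changes were 0.03 ± 0.13 and 0.002 ± 0.15 (SE), and the sign of each depended on which library was left out, from -0.03 without Yorkshire 1 to 0.11 without Yorkshire 5 for RPL26 and from -0.08 without Laiwu 1 to 0.10 without Yorkshire 5 for RPL7.

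Yorkshire 5 held the highest value of 61 of the 62 members, on log2 CPM scaled by TMM (a scaling that sets most genes level between libraries), where 22.0% of all tested genes were highest in that library. The exception was RPL3, which was highest in Yorkshire 3. Against the median of the other 11 libraries, members stood 1.57-fold higher in Yorkshire 5 at the median, from 1.199-fold for RPL15 to 2.24-fold for RPL38. At least 1.5-fold was reached by 39 of 62 members and by 14.7% of all genes. After RPL38 the largest were RPLP2 at 2.07-fold and RPS14 at 2.002-fold, and after RPL15 the smallest were RPL26, RPS10, RPS27A and RPS4X, at 1.25-fold each. This is a description of 1 library, with no test. Its muscle fibre markers also had the highest sum of the 12 libraries, 78278 FPKM. By FPKM, CKM, MYLPF and TNNT3 were highest there, and ACTA1 and DES were not. On log2 CPM scaled by TMM, 4 of the 5 markers were highest there. Its adipocyte markers summed to 101 FPKM, near the lowest, but they did not all go the same way. PLIN4, at 38.9 FPKM, was the lowest of the 12 libraries, and CFD, at 38.5 FPKM, the highest.

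**Figure D3:**
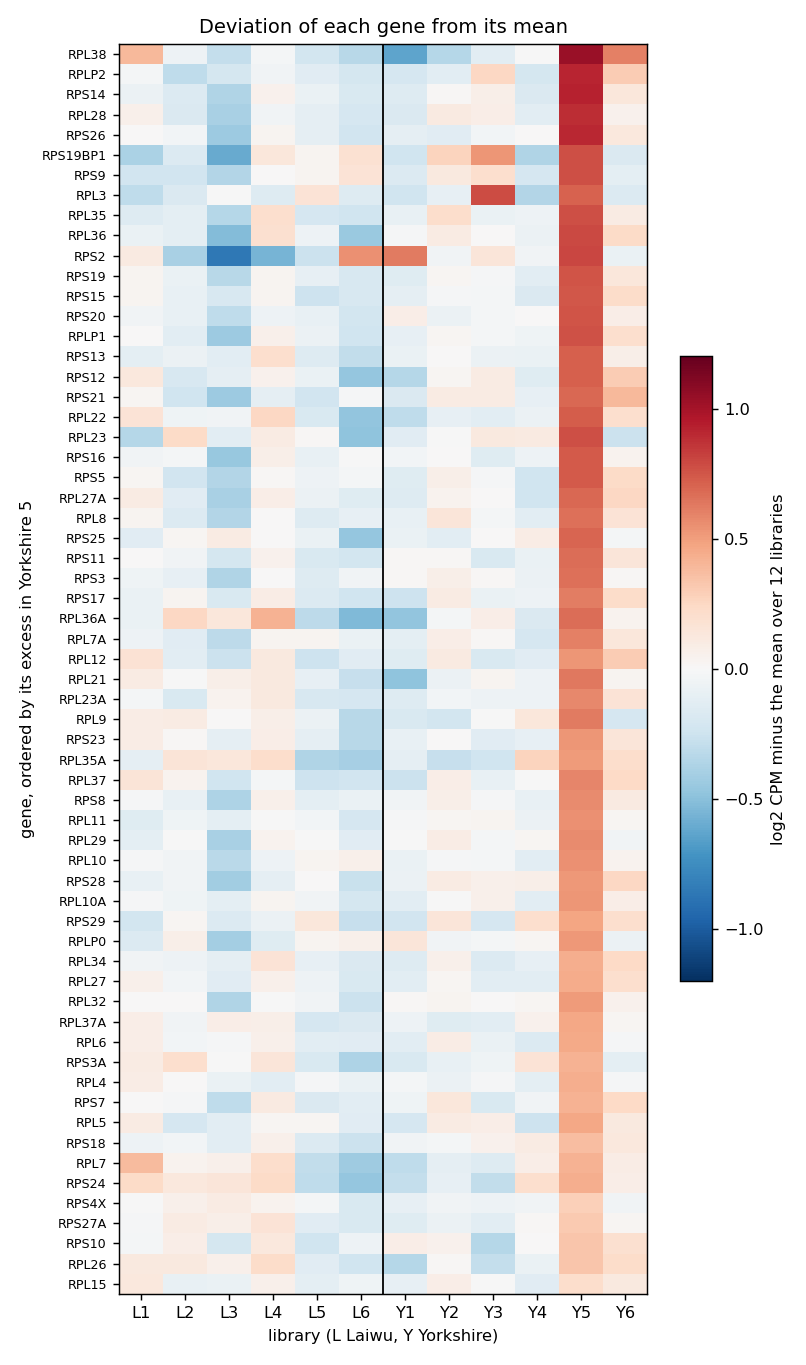
Deviation of each member, in log2 CPM, from its own mean over the 12 libraries, with genes in rows ordered by their excess in Yorkshire 5 and libraries in columns, Laiwu left of the line. The column of Yorkshire 5 is positive in every row, and RPS2, RPL3 and RPL38 show the strongest deviations in other libraries.

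Gene length moved with this pattern over the transcriptome. The 25% of other tested genes with the shortest models (up to 2238 bases) had a median log2 deviation of 0.35 in Yorkshire 5, and the 25% with the longest models (over 5694 bases) one of -0.30. The members had 0.61 there. Their models had a median of 1345 bases, against 3639 bases for all tested genes. Of the short genes, 42.9% were highest in Yorkshire 5, and 69.5% had a fitted breed difference below 0, with a median of -0.10. Without Yorkshire 5 these were 60.4% and -0.05. The excess in Yorkshire 5 had a Spearman's rho with length of -0.09 across the 61 ribosomal proteins, which share that library. The 6 with models longer than the median tested gene (4084 to 7237 bases) were 1.51-fold higher at the median, from 1.25-fold to 1.81-fold. The other 55 were 1.58-fold higher, from 1.199-fold to 2.24-fold. Such lengths exceed those known for ribosomal protein messenger RNAs, so model length is a loose guide to transcript length here. The part of length or RNA quality in the members' values was not tested.

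Other groups of genes that make or break down proteins were also high in Yorkshire 5. The 66 mitochondrial ribosomal protein genes, which serve the separate ribosome inside mitochondria, had a median log2 deviation of 0.38 there, and the 35 tested proteasome subunit genes one of 0.33. The other short genes had 0.35, and the models of these 2 groups were short too, with medians of 2151 and 2021 bases. The groups were highest in Yorkshire 5 in 60.6% and 48.6% of cases, against 42.9% of the other short genes and 22.0% of all tested genes. The part of length in their values was not tested. Between breeds, 52 of 66 mitochondrial ribosomal protein genes were below 0, with a median of -0.12 on the log2 scale (-0.05 without Yorkshire 5). For the proteasome it was 20 of 35 with a median of -0.02, or 0.05 without Yorkshire 5. MRPS26, the highest mitochondrial ribosomal protein gene, was at 27.8 to 33.7 FPKM in Laiwu and 28.2 to 59.8 in Yorkshire, and MRPL12 at 23.2 to 34.6 and 25.1 to 57.5 FPKM. PSMC5, an ATPase subunit of the proteasome, was at 92.2 to 113 and 96.6 to 141 FPKM, and PSMD7 at 74.5 to 100.3 and 71.5 to 98.6 FPKM. In each group 0 genes passed. At an unadjusted p under 0.05 in edgeR, 5 of 66 mitochondrial ribosomal protein genes were lower in Laiwu, against 2.30% of all tested genes. Without Yorkshire 5 these were 4 of 66 and 1.16%. For the proteasome it was 0 of 35, with or without Yorkshire 5. The difference between the groups was not tested.

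**Figure D4:**
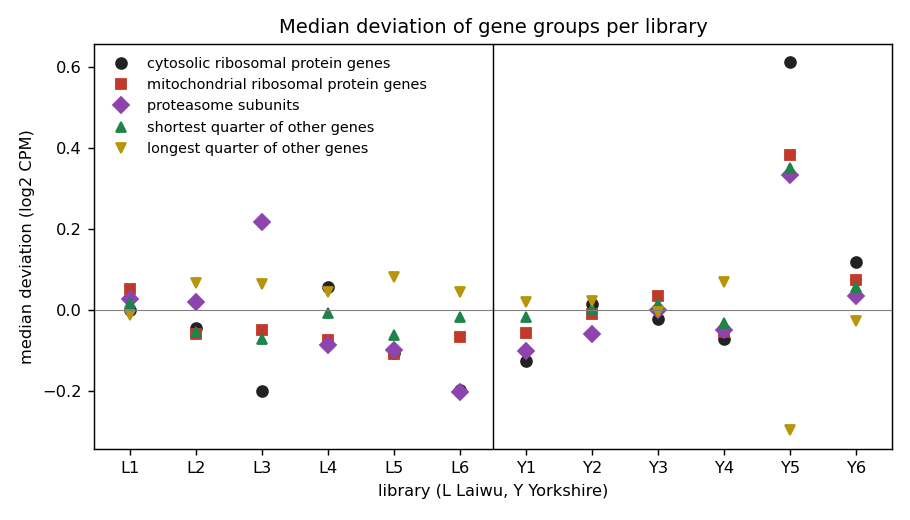
Median deviation in log2 CPM from the gene's mean over 12 libraries, by library, for the 62 members, mitochondrial ribosomal protein genes, proteasome subunits, and the 25% shortest and 25% longest of the other tested genes. In Yorkshire 5 the members stand highest, at 0.61, with the shortest genes at 0.35 and the longest at -0.30, and elsewhere the members stay between -0.20 and 0.12.

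Among the other libraries the members were lowest in Laiwu 3 and Laiwu 6 on log2 CPM scaled by TMM. In these 2 libraries lay the lowest value of 48 of 62 members, where 19.2% of all genes had theirs, and the median log2 deviation was -0.20 in both. In Yorkshire 6 it was 0.12 and in the remaining libraries it ran from -0.13 in Yorkshire 1 to 0.06 in Laiwu 4. By the members' share of counts, Laiwu 3 was again the lowest, at 1.18%. Laiwu 6 was not low by that measure, at 1.26%, above Laiwu 5 (1.24%) and Yorkshire 2 (1.21%). The measures also differed for Yorkshire 3, which was high by its share of 1.42% but had a median log2 deviation of -0.02. Laiwu 3 and Laiwu 6 also had the highest summed level of adipocyte markers, 263 and 253 FPKM over 7 of 7 markers, none at 0 in any library, within a range of 104 to 263 FPKM in Laiwu and 100.1 to 155 FPKM in Yorkshire. The part of fat cells in the low values was not tested. In bulk tissue, fewer cells of a type and less RNA per cell cannot be told apart.

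Members moved together within breeds. With the breed means removed, the mean Pearson correlation over pairs of members was 0.700 over 12 libraries and 0.366 over the 11 without Yorkshire 5. For comparison it was 0.232 and 0.0531 for mitochondrial ribosomal protein genes, 0.360 and 0.273 for the proteasome, and 0.0003 in both cases for all tested genes. These are descriptions over libraries that all the genes share. The spread of a member within breeds had a median SD of 0.233 in log2 CPM, and 0.149 without Yorkshire 5, and it was smaller without that library for all 62. RPL15, a large subunit protein, and RPS4X, the X-linked form of RPS4, varied least, at 82.3 to 98.1 and 273 to 349 FPKM over all libraries.

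RPS2, RPLP0 and RPL3 were the 3 members whose mean correlation with the other members was below 0 without Yorkshire 5, at -0.20, -0.09 and -0.08. The highest was 0.58, of RPS19, a small subunit protein whose gene is mutated in Diamond-Blackfan anaemia. RPS2, a protein at the channel through which messenger RNA enters (chromosome 3, 40001326 to 40002867), had with RPL38 the largest spread within breeds. It was at 418, 584 and 1096 FPKM (lowest, median and highest) across the Laiwu libraries and 644, 805 and 1188 FPKM across the Yorkshire libraries. Its 3 high libraries, from both breeds, were Laiwu 6 (1096 FPKM), Yorkshire 1 (1131 FPKM) and Yorkshire 5 (1188 FPKM). Its lowest were Laiwu 2, Laiwu 3, Laiwu 4 and Laiwu 5, at 418 to 614 FPKM, below every Yorkshire library. RPS2 had the largest fitted difference of the 62 members, named here after its value was seen. Its log2 fold change was -0.44 ± 0.24 (SE; edgeR adjusted p = 0.912), or -0.30 without Yorkshire 5 and -0.63 without Laiwu 6. RPS2 and many other members have near-identical processed copies in mammalian genomes, so the division of reads among copies is uncertain.

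RPL38, the other member with a wide spread, is a small protein of the large subunit known for its part in the translation of Hox messenger RNAs. It was at 8.81, 9.85 and 13.4 FPKM across the Laiwu libraries and 7.04, 10.9 and 20.7 FPKM across the Yorkshire libraries, so the lowest and the highest library were both Yorkshire. The highest were Yorkshire 5 at 20.7 FPKM, Yorkshire 6 at 15.5 FPKM and Laiwu 1 at 13.4 FPKM.

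Levels per length differed widely between members although the proteins are needed in about equal numbers. Mean FPKM of the 61 ribosomal proteins spanned 231-fold, from 5.59 for RPL37 to 1292 for RPLP1, with a median of 99.0 FPKM against 3.77 FPKM for all tested genes. There were 30 above 100 FPKM and 7 below 20 FPKM, and the 4 highest held 30.7% of the summed level. The order was nearly the same in both breeds, with a Spearman's rho of 0.996 between breed means across genes. The level was also related to the length used for it, at a rho of -0.31 across genes. The 7 below 20 FPKM had models of very different length. RPL37, RPL35 and RPS20 had 4274, 4928 and 7237 bases and RPL37A had 2379, while RPL38, RPS29 and RPL36A, at 11.2, 14.5 and 14.5 FPKM, had 742, 479 and 791 bases.

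The stalk of the large subunit, a flexible arm that recruits elongation factors, is made of RPLP0, RPLP1 and RPLP2 on a base next to RPL12. RPLP1 (chromosome 1, 167296094 to 167298263) was at 989, 1196 and 1304 FPKM across the Laiwu libraries and 1201, 1320.5 and 2030 FPKM across the Yorkshire libraries, the highest member in the mean. Yorkshire 5 at 2030 FPKM stood apart, and the other Yorkshire libraries, up to 1391 FPKM, overlapped those of Laiwu. RPLP0 was at 489.8, 598 and 668 FPKM across the Laiwu libraries and 556, 662 and 833 FPKM across the Yorkshire libraries. RPLP2, the partner of RPLP1 in the stalk, was far lower, at 16.9, 19.2 and 19.99 FPKM across the Laiwu libraries and 17.8, 21.5 and 37.2 FPKM across the Yorkshire libraries. The mean of RPLP1 was 60.1-fold that of RPLP2, whose model was 1496 bases against 535. RPL12 was at 96.5, 105 and 122 FPKM across the Laiwu libraries and 103, 111 and 153 FPKM across the Yorkshire libraries. All 4 had fitted values below 0, with or without Yorkshire 5, and 0 passed.

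RPL5 and RPL11 form with 5S ribosomal RNA a particle that, when not built into ribosomes, binds MDM2 and stabilises p53. RPL5 was at 133, 149.5 and 157 FPKM across the Laiwu libraries and 132, 154 and 199 FPKM across the Yorkshire libraries. RPL11 was at 26.8, 30.0 and 30.7 FPKM across the Laiwu libraries and 29.2, 30.7 and 42.8 FPKM across the Yorkshire libraries. The breeds overlapped in both. RPS27A, made as a fusion with ubiquitin, was at 34.7, 38.3 and 41.9 FPKM across the Laiwu libraries and 33.4, 37.5 and 44.3 FPKM across the Yorkshire libraries, nearly the same range. RPL10, which is X-linked and helps the subunits join, was at 478, 547 and 616 FPKM across the Laiwu libraries and 523, 551 and 783 FPKM across the Yorkshire libraries. RPL37A, with RPL37 and RPL38 among the lowest of the ribosomal proteins, was at 8.16 to 10.2 FPKM across the Laiwu libraries and 7.71 to 11.97 FPKM across the Yorkshire libraries. RPL37 was at 4.73 to 5.91 and 4.72 to 7.81 FPKM. RPS19BP1, the lowest member, was at 2.06 to 3.51 and 2.38 to 4.80 FPKM. Of the 10 members in which mutations cause Diamond-Blackfan anaemia, 9 were below 0, 8 without Yorkshire 5, and 0 passed.

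RPL3 reaches towards the centre where peptide bonds are made, and RPL3L partly replaces it in striated muscle. RPL3 (chromosome 5, 8922665 to 8929767) was at 32.5, 38.3 and 48.0 FPKM across the Laiwu libraries and 33.8, 36.3 and 80.6 FPKM across the Yorkshire libraries. Yorkshire 3 at 80.6 FPKM and Yorkshire 5 at 65.0 FPKM stood above the other 10 libraries, followed by Laiwu 5 at 48.0 and Laiwu 3 at 44.0 FPKM. RPL3L was at 127, 167 and 205 FPKM across the Laiwu libraries and 131, 178 and 201 FPKM across the Yorkshire libraries. Its lowest libraries were Laiwu 5 at 127 FPKM, Yorkshire 3 at 131 FPKM and Laiwu 3 at 153 FPKM, which are 3 of the 4 in which RPL3 was highest.

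The mean of RPL3L was 3.91-fold that of RPL3. Its share of the summed FPKM of RPL3 and RPL3L was 80.5 ± 4.69% (SD, n = 6) in Laiwu and 78.4 ± 9.07% (SD, n = 6) in Yorkshire, lying at 72.6% to 85.4% and at 61.9% to 85.0%. The difference of 2.08 percentage points, Laiwu minus Yorkshire, was within the spread of libraries (two-sided exact permutation test over 924 splits, p = 0.665, smallest possible 0.00216). Without Yorkshire 5 the Yorkshire mean was 79.4 ± 9.80% (SD, n = 5) and the difference 1.13 percentage points (exact permutation p = 0.838). Without Yorkshire 3 the difference was -1.22 percentage points (exact permutation p = 0.684), so its sign rests on that library. Yorkshire 3 also had the highest level of the proliferation markers, 8.33 FPKM summed over 4 of 5 markers looked for, against 3.87 to 5.19 FPKM in the other Yorkshire libraries and 3.92 to 6.88 FPKM in Laiwu. Its macrophage markers summed to 30.3 FPKM over 6 of 6, against 11.4 to 18.8 FPKM in the other Yorkshire libraries, while Laiwu ran from 11.3 to 35.4 FPKM. No marker of either list was at 0 in a library. The part of such cells in the RPL3 values was not tested.

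**Figure D5:**
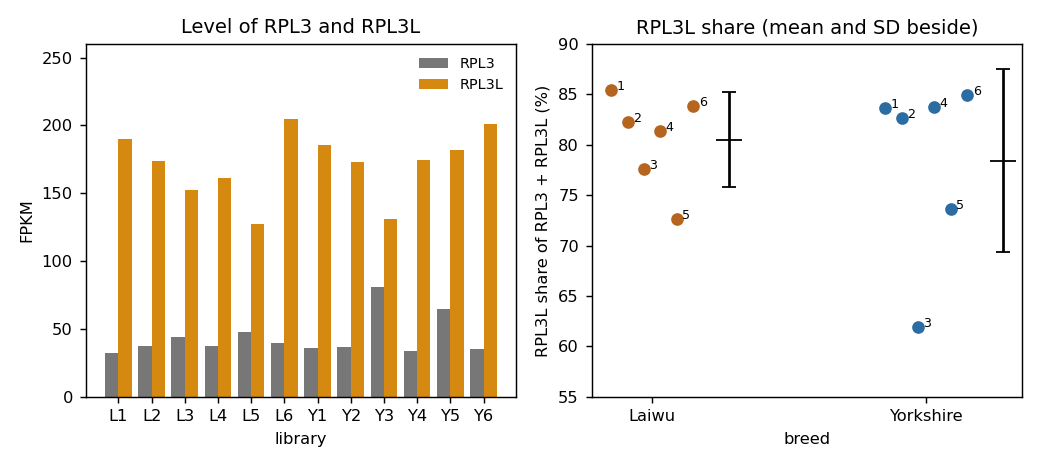
Left, FPKM of RPL3 (grey) and RPL3L (orange) in each library. Right, the share of RPL3L in the sum of both, in percent, 1 point per library with its replicate number, and mean with SD beside, on an axis that starts at 55%. RPL3L exceeds RPL3 in all 12 libraries, and its share is lowest in Yorkshire 3 at 61.9%.

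The other "like" paralogues found, RPL36AL, RPL7L1, RPL26L1 and RPS27L, were low. RPL36AL was at 6.47 to 9.59 FPKM across the Laiwu libraries and 5.46 to 8.65 FPKM across the Yorkshire libraries. Of 12 paralogues looked for, 5 were found with RPL3L among them, 3 were below 0 (2 without Yorkshire 5), and 0 passed. Among ribosomal components whose names the rule does not match, RACK1, RPSA and FAU were examined. All 3 were below 0 (2 without Yorkshire 5), all 3 were highest in Yorkshire 5, and 0 passed. RACK1, a scaffold on the small subunit, was at 260.2 to 284 FPKM across the Laiwu libraries and 265 to 391.8 FPKM across the Yorkshire libraries. RPSA, a small subunit protein also known as a laminin receptor, was at 189 to 229 and 197 to 292 FPKM.

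A further 8 ribosomal protein rows examined carry only an identifier in the symbol column and were named from their descriptions or a gene name table, after the data had been seen. They were RPS6, RPS15A, RPL13, RPL13A, RPL14, RPL17, RPL24 and RPL30. All 8 had a fitted value below 0 (7 without Yorkshire 5), all 8 were highest in Yorkshire 5, and 0 passed. With them the median log2 fold change over the set was -0.20. RPS6, the target of the S6 kinases, was at 98.6, 111 and 112 FPKM across the Laiwu libraries and 101, 109 and 164 FPKM across the Yorkshire libraries.

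With all 12 libraries, genes around ribosome production were split more evenly between the directions. Without Yorkshire 5, most genes of ribosome assembly and of RNA polymerase I were above 0. Of 16 genes found (18 looked for) known for TOP messenger RNAs outside the ribosome, or as their partners, 9 were below 0, and 8 without Yorkshire 5. TPT1, a growth-related TOP gene, was at 3398 to 3701 FPKM across the Laiwu libraries and 3346 to 4931 FPKM across the Yorkshire libraries. EEF1A2, the muscle form of the elongation factor that brings transfer RNA to the ribosome, was at 2431 to 3209 and 2460.0 to 3726 FPKM. Of 24 genes of ribosome assembly (26 looked for), 12 were below 0 and 12 above, with a median log2 fold change of 0.004. Without Yorkshire 5, 7 were below 0 and 17 above, with a median of 0.04. SBDS, which readies the large subunit for joining, was at 59.1 to 69.8 and 53.6 to 71.6 FPKM, and nucleolin (NCL) at 31.7 to 43.7 and 28.8 to 42.3 FPKM. Of 14 genes of RNA polymerase I and its factors, which make ribosomal RNA, 8 were below 0, and 4 without Yorkshire 5. POLR1D, a subunit that RNA polymerases I and III share, was at 17.4 to 24.4 and 18.6 to 34.4 FPKM, and TAF1D at 16.0 to 20.01 and 14.9 to 17.8 FPKM. Of 17 genes of mTOR and its controls, 7 were below 0, with a median of 0.06 (6 and 0.02 without Yorkshire 5). EIF4EBP2, which holds back translation until mTOR phosphorylates it, was at 48.0 to 66.4 and 35.9 to 61.0 FPKM, and DEPTOR, an inhibitor of mTOR, at 26.5 to 53.4 and 25.2 to 47.7 FPKM. In each of these lists 0 genes passed edgeR's adjusted threshold, and at an unadjusted p under 0.05 there was 1 gene in the TOP list and 0 in the others. Whether these lists differ from the members was not tested.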

How the data were processed

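Poly(A) RNA of 12 muscle samples was sequenced with a kit that marks strand, per the labels' protocols. Reads were filtered with FastQC and aligned with HISAT2 2.2.1 to Sscrofa11.1, per the series' design text, while StringTie 1.3.4d, cutadapt 1.9, edgeR and DESeq2 appear, with no role, among the submitters' processing notes. For counting settings, strand and annotation release, the sources used here give nothing. The authors deposited a raw count and an FPKM value per gene and library, per the file headers. Gene length was computed as count over FPKM and library total.

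The 11205 genes averaging 0.5 FPKM or more were fitted with edgeR 4.0.16 (TMM, robust), Laiwu minus Yorkshire, with no covariate and Benjamini-Hochberg adjustment over all of them; each SE is the fold change over the square root of F. Simulated counts, 200 genes changed, were used to check it. Other software was R 4.3.3, DESeq2 1.42.0, limma 3.58.1, matplotlib 3.10.9 and Python 3.11.15. DESeq2 gave no adjusted p for 10 genes.

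Members, gene lists and tests were chosen with earlier results of these data known. Named with fold changes were the 4 members above and the 4 below 0 of smallest p with at least 5 FPKM (2 were above 0); with levels, the 4 highest and 4 lowest, stalk, 5S, RPS6, RPS27A, RPL3 and RPL3L, the 2 most and 2 least variable, and the 2 highest of each related list. Alternatives were DESeq2, no TMM, other filters, limma on log2(FPKM + 1) and on log2(FPKM + 0.1), a replicate block and leaving out each library. Leaving out Yorkshire 3 and 5 together and adding the 8 rows named elsewhere were chosen after seeing the data. One ribosomal component is not reported here. A count of 0 allows up to 3 counts, for counting error only.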

Additional observations from a re-analysis of the deposited data

Results flagged for a closer look

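In a group of 6 libraries, a value was picked out when its gap to the nearest library was above Dixon's 95% critical value as a part of the group's range. Of 82 groups examined for the named genes and shares, 13 were picked out, where chance gives about 1 in 20, and genes of 1 library are not independent.

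Yorkshire 5 was the high library in 7 of them. The members' share of counts was 1.83% there, against 1.42% in the next Yorkshire library. RPL36 was at 84.9 FPKM against 58.1, RPS20 at 24.5 against 16.9, and RPLP1 at 2030 against 1391. Outside the members, TPT1 was at 4931 FPKM against 3790, POLR1D at 34.4 against 23.4, and PSMC5, an ATPase of the proteasome, at 141 against 112.

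Laiwu 3 was the high Laiwu library for RPL36AL at 9.59 FPKM against 7.23, SBDS at 69.8 against 63.0, and PSMD7, a subunit of the proteasome, at 100.3 against 79.0. RPL38 was high in Laiwu 1, at 13.4 FPKM against 10.4, and TPT1 in Laiwu 4, at 3701 FPKM against 3508. TAF1D was low in Yorkshire 4, at 14.9 FPKM against 17.0.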

How the results depend on the processing

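Over 20 alternatives, 0 members passed in any. DESeq2 called 1 gene in all and the other alternatives 0. The members' median log2 fold change stayed below 0 in all 22 alternatives, from -0.24 without Yorkshire 1 to -0.07 without Yorkshire 5, and was -0.18 without TMM and -0.16 by limma on log2(FPKM + 1). Members below 0 numbered from 48 without Yorkshire 3 and 5 together to 62 without Laiwu 4. Members at an unadjusted p under 0.05 and lower in Laiwu, 4 with all libraries, numbered 1 to 11 with 1 library left out. The difference in the share of counts ran from -0.175 to -0.0516 percentage points with 1 library left out and was -0.232 on a total without the 20 highest genes. The co-variation of members moved to 0.366 without Yorkshire 5.

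The log2 fold change of RPL7 turned to -1.98e-05 by DESeq2, -0.00229 without a low-value filter and -0.00519 with the replicate block, and ran from -0.0825 to 0.0959 with 1 library left out. That of RPL26 ran from -0.0252 to 0.112. The difference in the RPL3L share ran from -1.22 to 3.67 percentage points with 1 library left out, and was -3.23 without Yorkshire 3 and 5 together (exact permutation p = 0.243). With the replicate block, sign flips of the same-numbered differences gave an exact p of 0.813. The cause of these changes was not tested.

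Same-numbered libraries share only a number. Their deviations correlated at -0.285 to 0.301, and 0 of 6 correlated best with its own number. With the replicate block 0 genes were called and the members' median log2 fold change was -0.18.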

Other observations

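RPL13, a large subunit protein named in the table only by its description, showed the largest fitted breed difference among the ribosomal protein genes examined, and was chosen after its value was seen. It was at 56.2, 90.6 and 137 FPKM (lowest, median and highest) across the Laiwu libraries and 122, 141 and 202 FPKM across the Yorkshire libraries. Laiwu 1 and Laiwu 6, at 125 and 137 FPKM, reached into the Yorkshire range. The log2 fold change was -0.64 ± 0.21 (SE; edgeR adjusted p = 0.912, unadjusted p = 0.00919), from -0.75 without Laiwu 6 to -0.50 without Yorkshire 5.

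RPL7 and RPS24 had the same 3 lowest libraries. RPL7 was at 145 to 156 FPKM in Laiwu 5, Laiwu 6 and Yorkshire 1 and at 162 to 237 FPKM in the other 9 libraries, and RPS24, a small subunit protein, was at 60.8 to 67.7 FPKM in the same 3 and at 70.3 to 103 FPKM in the others. RPS2 was at 1096 and 1131 FPKM in Laiwu 6 and Yorkshire 1 but at 614 FPKM in Laiwu 5. These genes were chosen after their values were seen.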
